A study of Mus musculus with 12 samples.

Results

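The genes described here encode the subunits of the proteasome, its activators, its assembly chaperones and its inhibitor. They were chosen by name: every probe set whose only gene symbol on the platform begins with Psma, Psmb, Psmc, Psmd, Psme, Psmf or Psmg followed by a digit. The rule found 85 probe sets of 22626 on the array, for 48 genes of 12393 with a probe set of a single symbol. The immune form was measured through 4 genes, Psmb8, Psmb9, Psmb10 and Psme1, and the other 44 genes made up the rest. Psme2, the partner of Psme1, shares its probe set with a second gene symbol and was not analysed here, and neither was Psmb11, the thymus subunit.

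The expression values came from Affymetrix 3′ arrays of cells isolated from mouse liver. All mice were male C57BL/6N, 12 weeks old, with no altered allele named in the labels. Phenobarbital, a barbiturate used as an inducer of liver drug metabolism, was supplied for 14 days through the drinking water (50 mg/kg daily), and the vehicle mice drank tap water for the same time. The 4 groups of 3 arrays were the mesenchymal cells of phenobarbital mice and of vehicle mice, and the hepatocytes of phenobarbital mice and of vehicle mice. The sources used here do not state how many animals stood behind an array or whether the arrays of a group came from separate animals. The p-values therefore measure the spread between these samples, and 3 arrays a group limit the precision of every value.

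The proteasome is the protease that degrades proteins tagged with ubiquitin. Its barrel, the core particle, is built of α subunits at the ends and β subunits in the middle, and cuts peptides at its β1, β2 and β5 sites. The regulatory particle caps the barrel with a base, which holds a ring of ATPases, and a lid, which holds the enzyme that removes ubiquitin. In cells exposed to interferon γ, and in immune cells without it, Psmb9, Psmb10 and Psmb8 take the places of Psmb6, Psmb7 and Psmb5 at the 3 cutting sites. The result is the immunoproteasome, whose peptides are presented by MHC class I. Psme1 and Psme2 form the cap called PA28, which opens the barrel without ATP and is also induced by interferon γ.

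The start regions of 5 of these genes are shown because the results turn on the contrast between the immune and the standard form. Each is a RefSeq window on GRCm38.p6, from 250 bases before the start of the gene to 50 bases after it, written 5′ to 3′ on the strand of the gene. Capitals mark matches, read on both strands, to 4 motifs: the core of the interferon-stimulated response element, which is GAAA, any 2 bases and GAAA again; TTCNNNGAA, the element bound by STAT factors; TGACNNNGC, the core of the antioxidant element bound by Nfe2l1 and Nfe2l2; and GGGCGG, the GC box. No matches overlapped one another in these 5 windows.
Psmb9, chr17:34187281-34187580, minus strand: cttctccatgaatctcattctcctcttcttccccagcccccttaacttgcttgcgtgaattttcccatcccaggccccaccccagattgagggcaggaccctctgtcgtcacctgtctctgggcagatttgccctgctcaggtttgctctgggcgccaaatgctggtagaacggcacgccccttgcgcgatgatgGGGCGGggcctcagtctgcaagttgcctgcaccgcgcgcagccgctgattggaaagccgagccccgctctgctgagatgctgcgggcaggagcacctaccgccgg
Psmb6, chr11:70525107-70525406, plus strand: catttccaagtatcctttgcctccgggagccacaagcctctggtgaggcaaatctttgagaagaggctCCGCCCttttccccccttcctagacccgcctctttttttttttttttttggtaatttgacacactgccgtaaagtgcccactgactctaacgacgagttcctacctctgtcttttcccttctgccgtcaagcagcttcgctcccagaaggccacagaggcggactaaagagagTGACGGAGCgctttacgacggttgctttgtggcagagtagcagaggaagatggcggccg
Psmb8, chr17:34197945-34198244, plus strand: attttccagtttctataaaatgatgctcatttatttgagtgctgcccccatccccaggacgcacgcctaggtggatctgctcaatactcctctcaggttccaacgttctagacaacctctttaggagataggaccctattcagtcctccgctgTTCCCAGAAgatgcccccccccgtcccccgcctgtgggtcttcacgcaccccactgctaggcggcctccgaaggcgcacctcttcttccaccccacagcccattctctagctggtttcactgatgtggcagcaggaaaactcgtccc
Psmb5, chr14:54617946-54618245, minus strand: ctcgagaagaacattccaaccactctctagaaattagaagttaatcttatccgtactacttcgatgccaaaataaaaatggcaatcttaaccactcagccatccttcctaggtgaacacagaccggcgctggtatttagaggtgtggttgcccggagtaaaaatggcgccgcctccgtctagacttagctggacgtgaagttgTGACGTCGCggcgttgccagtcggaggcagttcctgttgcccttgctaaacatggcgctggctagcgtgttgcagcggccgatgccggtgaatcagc
Psme1, chr14:55578244-55578543, plus strand: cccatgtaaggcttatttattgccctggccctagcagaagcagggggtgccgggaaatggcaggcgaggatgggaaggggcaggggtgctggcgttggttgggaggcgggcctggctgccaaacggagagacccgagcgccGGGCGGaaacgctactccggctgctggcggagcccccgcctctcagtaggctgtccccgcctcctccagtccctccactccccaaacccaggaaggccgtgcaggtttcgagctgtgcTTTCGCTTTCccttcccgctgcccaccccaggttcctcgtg

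The Psmb9 window held a GC box that began at −55 from the start site, and the Psmb6 window held the antioxidant core at −9 and a GC box, on the other strand, at −182. The Psmb8 window held the STAT element at −97, and the Psmb5 window the antioxidant core at −47. The Psme1 window held a GC box at −109 and, at +10 on the other strand, the interferon core. The Psmb9 window shares 275 of its 300 bases with that of Tap1, a subunit of the peptide transporter, which is transcribed the other way on chromosome 17.

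Windows were found for 40 of the 48 genes, 43 windows in all. Psma8, Psmb1, Psmb2, Psmb7, Psmc3, Psmd3, Psmd7 and Psmg2 were not matched. The interferon core lay in 5 of the 43 windows (11.63%), those of Psmb3, Psmd4, Psmd9, Psme1 and Psmg4, against 3.443% of all 32851 windows in the table. The STAT element lay in 3 windows (6.977%, against 8.298% of all windows), those of Psmb8, Psmd2 and Psmg1. The antioxidant core lay in 6 (13.95%, against 12.39%), those of Psmb5, Psmb6, Psmc6, Psmd12, Psmd9 and Psme4. The GC box lay in 23 (53.49%, against 35.66%), and the median GC content was 59.0% in the proteasome windows and 52.67% in all windows. A match describes these letters in this window and shows no binding.

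The cell fractions were checked through lists of marker genes, given as the mean log2 level of a list on each array. The 12 measured macrophage markers, out of 13 listed, lay between 13.62 and 14.04 in mesenchymal cells of phenobarbital mice and between 13.74 and 13.91 in those of vehicle mice, against 5.93 to 6.54 in hepatocytes of phenobarbital mice and 6.23 to 6.27 in those of vehicle mice. The 13 endothelial markers lay between 12.08 and 12.64 in the mesenchymal arrays and between 6.01 and 6.44 in the hepatocyte arrays. The 9 stellate cell markers lay between 7.66 and 8.40 in the mesenchymal arrays and between 5.46 and 5.70 in the hepatocyte arrays. The 10 T and NK cell markers lay between 7.80 and 8.69 in the mesenchymal arrays and between 5.91 and 6.14 in hepatocytes, and the 8 measured B and dendritic cell markers, out of 9 listed, between 9.54 and 9.83 and between 6.31 and 6.43. By limma all 12 macrophage and all 13 endothelial markers were higher in mesenchymal cells in both treatments, as were 6 of 7 tested stellate markers and 7 of 8 tested T and NK cell markers, and of the 7 tested B and dendritic cell markers 7 were higher in phenobarbital mice and 6 in vehicle mice, while all 13 hepatocyte markers were lower. Levels of different lists come from different probes and do not rank the cell types. The 13 measured hepatocyte markers, out of 15 listed, lay between 13.99 and 14.10 in hepatocytes but still between 9.46 and 11.27 in the mesenchymal arrays, the highest on array 1 of phenobarbital mice. Cyp2b10, the usual reporter of phenobarbital, read 13.06, 14.15 and 12.87 in hepatocytes of phenobarbital mice and 7.80, 8.01 and 7.72 in those of vehicle mice.

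The immune form was the higher one in the mixed fraction labelled mesenchymal, and the standard cutting subunits were the higher ones in hepatocytes. Psmb8, Psmb9, Psmb10 and Psme1 were all higher in mesenchymal cells, by 2.02 to 3.33 fold in phenobarbital mice and 2.26 to 3.48 fold in vehicle mice. Psmb5, Psmb6 and Psmb7 were all lower, by 1.48 to 1.87 fold in phenobarbital mice and 1.51 to 1.85 fold in vehicle mice. Values below are RMA expression levels on the log2 scale, where a difference of 1 is 2-fold, and differences are mesenchymal cells minus hepatocytes. In such bulk samples, fewer cells of a type and less RNA per cell cannot be told apart.

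Psmb9, the immune subunit of the β1 site, read 11.20, 11.19 and 11.21 in mesenchymal cells of phenobarbital mice and 11.16, 10.97 and 11.15 in those of vehicle mice. It read 9.40, 9.80 and 9.54 in hepatocytes of phenobarbital mice and 9.44, 9.39 and 9.31 in those of vehicle mice. All 6 mesenchymal arrays lay above all 6 hepatocyte arrays. The difference was 1.62 (SE 0.10, limma adjusted p = 2.55e-08) in phenobarbital mice and 1.71 (SE 0.10, limma adjusted p = 1.6e-08) in vehicle mice.

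Psmb10, the immune subunit of the β2 site, read 11.39, 11.59 and 11.74 in mesenchymal cells of phenobarbital mice and 11.53, 11.48 and 11.45 in those of vehicle mice. It read 9.94, 10.26 and 10.34 in hepatocytes of phenobarbital mice and 10.04, 10.03 and 10.02 in those of vehicle mice. The populations did not overlap, and the spread was widest in the phenobarbital groups. The difference was 1.39 (SE 0.11, limma adjusted p = 2.16e-07) in phenobarbital mice and 1.45 (SE 0.11, limma adjusted p = 1.49e-07) in vehicle mice.

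Psmb8, the immune subunit of the β5 site, read 11.51, 11.57 and 11.67 in mesenchymal cells of phenobarbital mice and 11.64, 11.42 and 11.50 in those of vehicle mice. It read 9.63, 9.94 and 9.97 in hepatocytes of phenobarbital mice and 9.90, 9.64 and 9.63 in those of vehicle mice. Again every mesenchymal array lay above every hepatocyte array. The difference was the widest of the 4 immune genes, 1.73 (SE 0.11, limma adjusted p = 3.53e-08) in phenobarbital mice and 1.80 (SE 0.11, limma adjusted p = 2.55e-08) in vehicle mice.

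Psme1, the α subunit of PA28, read 12.19, 12.33 and 12.39 in mesenchymal cells of phenobarbital mice and 12.30, 12.17 and 12.21 in those of vehicle mice. It read 11.17, 11.40 and 11.27 in hepatocytes of phenobarbital mice and 11.12, 11.00 and 11.01 in those of vehicle mice. Its populations did not overlap either, with a narrower gap than those of the 3 cutting subunits. The difference was 1.02 (SE 0.08, limma adjusted p = 2.16e-07) in phenobarbital mice and 1.18 (SE 0.08, limma adjusted p = 5.78e-08) in vehicle mice.

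The standard counterparts ran the other way. Psmb6, the β1 subunit with caspase-like activity, read 10.39, 10.35 and 10.53 in mesenchymal cells of phenobarbital mice, 10.49, 10.36 and 10.41 in those of vehicle mice, 11.19, 11.20 and 11.23 in hepatocytes of phenobarbital mice and 11.16, 11.08 and 11.12 in those of vehicle mice. Its difference was −0.79 (SE 0.07, limma adjusted p = 5.03e-07) in phenobarbital mice and −0.70 (SE 0.07, limma adjusted p = 1.4e-06) in vehicle mice. Every mesenchymal array lay below every hepatocyte array.

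Psmb7, the β2 subunit with trypsin-like activity, read 10.40, 10.42 and 10.34 in mesenchymal cells of phenobarbital mice, 10.48, 10.32 and 10.29 in those of vehicle mice, 11.16, 11.27 and 11.43 in hepatocytes of phenobarbital mice and 11.33, 11.22 and 11.20 in those of vehicle mice. Its difference was the widest of the 3 standard cutting subunits, −0.90 (SE 0.08, limma adjusted p = 9.07e-07) in phenobarbital mice and −0.89 (SE 0.08, limma adjusted p = 1.06e-06) in vehicle mice. Psmb5, the β5 subunit with chymotrypsin-like activity, read 10.81, 10.74 and 10.79 in mesenchymal cells of phenobarbital mice, 10.87, 10.80 and 10.72 in those of vehicle mice, 11.31, 11.45 and 11.28 in hepatocytes of phenobarbital mice and 11.39, 11.36 and 11.42 in those of vehicle mice. Its difference was −0.57 (SE 0.07, limma adjusted p = 9.3e-06) in phenobarbital mice and −0.59 (SE 0.07, limma adjusted p = 6.52e-06) in vehicle mice. Neither gene's mesenchymal arrays overlapped the hepatocyte arrays.

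**Figure D1:**
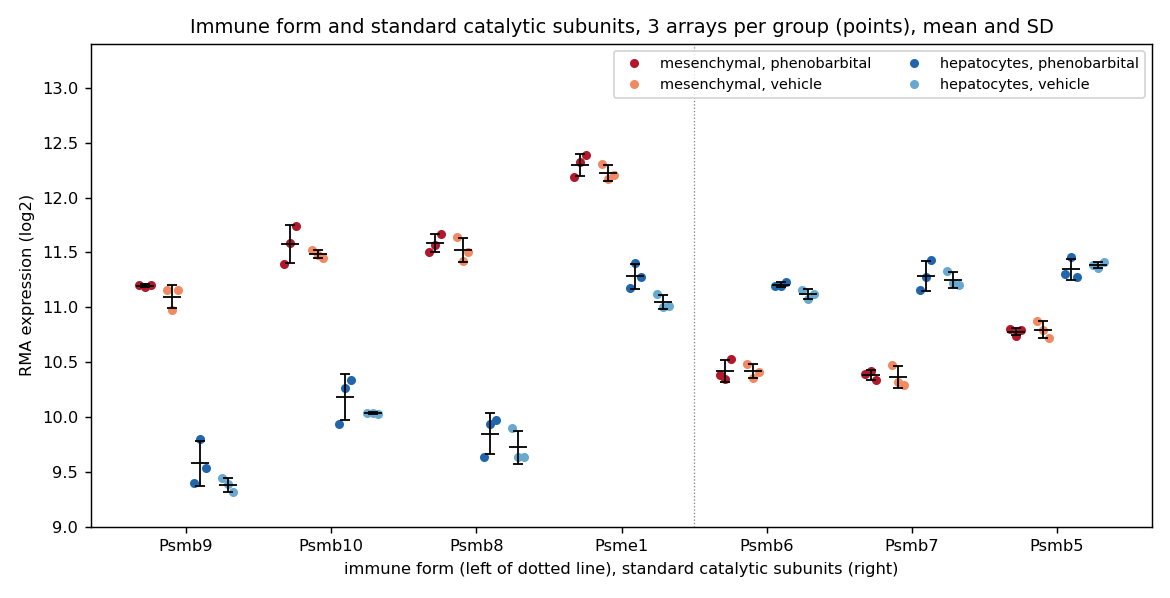
Log2 RMA expression (vertical axis) of the 4 immune form genes and the 3 standard cutting subunits (horizontal axis), with a point for each array and the mean and SD of each group of 3. The immune genes sit higher in mesenchymal cells (Psmb9 at 11.20 and 11.09 on average with phenobarbital and vehicle, against 9.58 and 9.38 in hepatocytes) and the standard subunits sit lower there. Heights of different genes come from different probes and are not comparable.

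Because each immune subunit takes the place of a standard one, the pairs were also read as the immune minus the standard log2 value on each array. The height of such a difference depends on the probes, so that only its shift between groups was used. In phenobarbital mice Psmb9 minus Psmb6 was 0.81, 0.84 and 0.68 on the mesenchymal arrays and −1.79, −1.40 and −1.70 on the hepatocyte arrays, a shift of 2.41 (SE 0.13), which is 5.30-fold. In vehicle mice it was 0.67, 0.61 and 0.75 on the mesenchymal arrays and −1.72, −1.68 and −1.81 on the hepatocyte arrays, again a shift of 2.41 (SE 0.05), or 5.33-fold. No mesenchymal array overlapped a hepatocyte array in this pair or in the other pairs. Psmb10 minus Psmb7 shifted by 2.295 (SE 0.13), or 4.91-fold, in phenobarbital mice and by 2.34 (SE 0.05), or 5.06-fold, in vehicle mice. Psmb8 minus Psmb5 shifted by 2.302 (SE 0.12), or 4.93-fold, in phenobarbital mice and by 2.39 (SE 0.10), or 5.24-fold, in vehicle mice. The shift was thus of similar size at the 3 sites. Each shift combines the differences of its 2 genes given above, so it is no evidence beyond them and does not measure how many subunits are replaced. The exact two-sided permutation test gave p = 0.1 for each of these 6 shifts, the smallest p that 3 arrays against 3 allow, and 0.2 after Benjamini-Hochberg adjustment over the 12 comparisons of pairs made here.

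**Figure D2:**
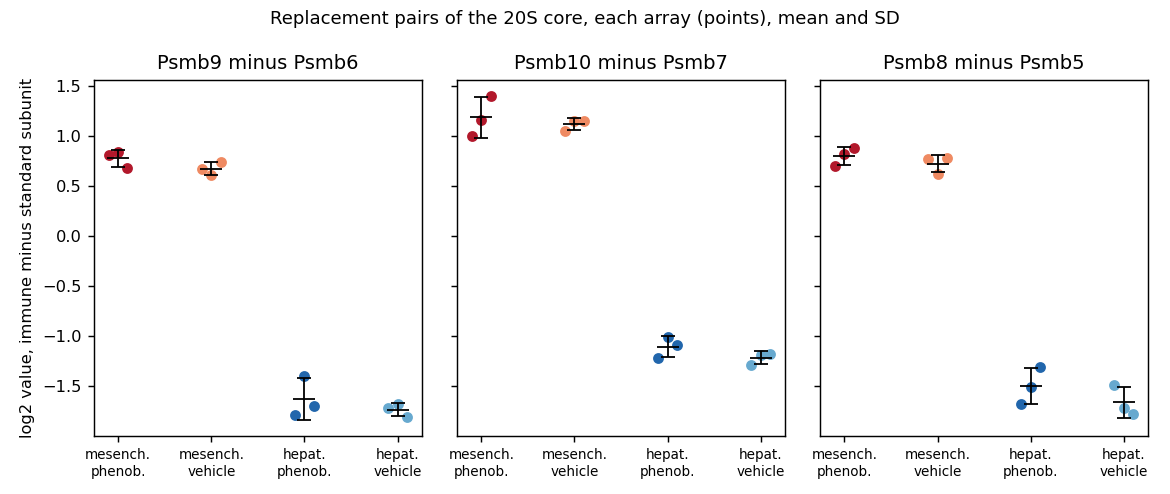
Immune minus standard log2 value (vertical axis) for the 3 pairs that share a site of the core, with a point for each array and the mean and SD of each group of 3 arrays. Mesenchymal arrays sit above hepatocyte arrays in each pair, by 2.41, 2.295 and 2.302 in phenobarbital mice and 2.41, 2.34 and 2.39 in vehicle mice, and phenobarbital and vehicle arrays of 1 population overlap.

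The immune genes moved with the cell types of the fraction: all 4 were high on the arrays where the macrophage and endothelial marker lists were high, and the part of these cells in the difference was not tested. The hepatocyte RNA in the mesenchymal arrays, given above, also moves with population, and its part in these differences was not tested.

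Most proteasome genes were lower in mesenchymal cells, by small amounts. The counts of 47 genes below include the 4 immune genes and the 3 standard cutting subunits described above. Without the 4 immune genes, 3 of 43 were higher and 27 lower in phenobarbital mice, and 5 and 28 in vehicle mice. In phenobarbital mice 7 of the 47 genes tested were higher and 27 lower in mesenchymal cells at a limma adjusted p under 0.05, or 72.3% in either direction, while 83.1% of all 9031 genes tested passed, 42.2% higher and 40.9% lower. In vehicle mice 9 were higher and 28 lower, or 78.7%, against 82.7% of all genes, 42% higher and 40.7% lower. The shares that passed were below those of all genes, and the median differences of the proteasome genes were −0.32 in phenobarbital mice and −0.31 in vehicle mice, with 0.03 and 0.02 for all genes. A difference of at least 2-fold was found for 6 of the 47 (12.8%) in each treatment, against 42.9% of all genes in phenobarbital mice and 42.3% in vehicle mice. The populations did not overlap for 39 genes (83.0%, against 85.7% of all genes) in phenobarbital mice and for 37 (78.7%, against 84.4%) in vehicle mice.

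The balance of directions depends on how the arrays are scaled. The medians of the deposited arrays split by population, lying between 7.40 and 7.44 in mesenchymal cells and between 7.19 and 7.21 in hepatocytes. With arrays centred on their medians, which moved the median difference of all genes to −0.20 in both treatments, 4 genes were higher and 34 lower in either treatment, and the 4 higher ones were those of the immune form. With cyclic loess, where Psma8 also passed the filter, so that 48 genes were tested, and was among the higher ones, the counts were 6 higher and 33 lower in phenobarbital mice and 8 and 33 in vehicle mice. The 4 immune genes stayed higher and the 3 standard cutting subunits stayed lower under each scaling. Below, pairs of values without a label are the difference in phenobarbital mice and then the difference in vehicle mice.

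In the core particle, 1 of the 14 standard genes tested was higher and 7 lower in mesenchymal cells of phenobarbital mice, and 2 were higher and 6 lower in vehicle mice. Besides the 3 cutting subunits, Psmb3 (−0.79 in phenobarbital mice and −0.84 in vehicle mice), Psmb1 (−0.29 and −0.31) and the α subunit Psma4 (−0.33 and −0.31) were lower in both treatments, and Psmb4 passed in phenobarbital mice alone (−0.20 and −0.13). The α subunit Psma7 was higher in both treatments, by 0.24 and 0.38. Its call was lost in 10 of the alternative fits described below in phenobarbital mice and in 2 in vehicle mice. The further tested probe set of Psma7 had the other sign (−0.18 and −0.08) and did not pass. The α subunit Psma6 had a difference of 0.13 in phenobarbital mice (limma adjusted p = 0.143) and was higher in vehicle mice (0.34, limma adjusted p = 0.00159). With arrays centred on their medians neither Psma6 nor Psma7 passed. Psmb2, Psma1, Psma2, Psma3 and Psma5 did not pass in either treatment, with differences between −0.19 and 0.17. On the probe sets used here, the structural subunits, which both forms of the core share, did not show the rise of the immune cutting subunits. Apart from Psmb3, they also had no difference as wide as those of the 3 standard ones. Further tested probe sets gave other sizes. That of Psmb1 had −0.90 and −0.84, and that of Psmb4 passed in both treatments (−0.51 and −0.42), while that of Psmb3 had −0.28 and −0.24.

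Psma8, the testis counterpart of Psma7, lay above the 40th percentile on 0 of the 12 arrays and was not tested. Its mean level was 6.51 ± 0.06 in mesenchymal cells of phenobarbital mice, 6.55 ± 0.12 in those of vehicle mice, 5.59 ± 0.22 in hepatocytes of phenobarbital mice and 5.70 ± 0.21 in those of vehicle mice (SD, n = 3 each).

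Among the 17 genes of the regulatory particle named by the rule, 12 were lower and 0 higher in mesenchymal cells of phenobarbital mice by limma. In vehicle mice 14 were lower and 0 higher. The same 0 higher held for these 17 with median centring and with cyclic loess, which gave 15 lower in each treatment. Sem1, a lid subunit outside the rule, was higher in both treatments (0.50 and 0.62), as given below. Of the 6 ATPases, which unfold the substrate and thread it into the core, 4 were lower in phenobarbital mice and 5 in vehicle mice. Psmc6 (−0.55 and −0.46), Psmc4 (−0.49 and −0.59), Psmc1 (−0.38 and −0.36) and Psmc5 (−0.36 and −0.48) were lower in both, while Psmc2 differed by 0.06 and 0.01 and did not pass. Psmc3 had −0.08 in phenobarbital mice, where it did not pass, and was at the threshold in vehicle mice (−0.15, limma adjusted p = 0.0359, and 0.0536 with the replicate number as a block). Of the other subunits of the base, the scaffold subunit Psmd1 (−0.36 and −0.54) and the ubiquitin receptor Psmd4 (−0.21 and −0.29) were lower in both treatments. The scaffold subunit Psmd2 had −0.20 in phenobarbital mice (limma adjusted p = 0.0522) and was lower in vehicle mice (−0.23, limma adjusted p = 0.0278).

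On the probe sets used here, the lid held the widest differences of the regulatory particle, while further probe sets of the ATPase Psmc6, given below, had wider ones. Psmd13 differed by −0.69 in phenobarbital mice and −0.996 in vehicle mice, with the largest SE of these genes, 0.19. Its level was 8.09, 8.71 and 8.54 in mesenchymal cells of phenobarbital mice, 7.96, 8.29 and 8.01 in those of vehicle mice, 8.90, 9.12 and 9.39 in hepatocytes of phenobarbital mice and 9.38, 8.90 and 8.95 in those of vehicle mice. All its mesenchymal arrays lay below its hepatocyte arrays, though its arrays were spread within each group. Psmd12 (−0.79 and −0.89), Psmd11 (−0.70 and −0.88), Psmd8 (−0.60 and −0.57), Psmd6 (−0.54 and −0.50) and Psmd7 (−0.32 and −0.31) were lower in both treatments. The further tested probe set of Psmd7 went the other way and passed as higher in both treatments (0.52 and 0.38). The call of Psmd7 was also lost in 2 alternative fits in phenobarbital mice and in 3 in vehicle mice. Psmd14, the deubiquitinase of the lid, did not pass in either (−0.11 and −0.19), and neither did Psmd3 (0.05 and −0.05).

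The other activators were lower as well. Psme3, which forms the nuclear relative of PA28, differed by −0.52 in phenobarbital mice and −0.63 in vehicle mice. Psme4, a large nuclear activator linked to the degradation of histones, differed by −0.82 and −0.91. Psme1 was the only one of the 3 activator genes measured here that was higher in mesenchymal cells.

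On the probe sets used here, the assembly chaperones included the widest falls of all proteasome genes. Further probe sets of Psmc6 fell more, with −1.52 and −1.56 in phenobarbital mice and −1.34 and −1.47 in vehicle mice. A further probe set of Psmd11 had −1.35 in vehicle mice. Psmg1, which with Psmg2 guides the α ring, read 8.64, 8.62 and 8.63 in mesenchymal cells of phenobarbital mice, 8.73, 8.58 and 8.53 in those of vehicle mice, 9.80, 9.93 and 9.92 in hepatocytes of phenobarbital mice and 9.82, 9.74 and 9.78 in those of vehicle mice. Every mesenchymal array lay below every hepatocyte array. The difference was −1.25 in phenobarbital mice (limma adjusted p = 1.95e-08) and −1.16 in vehicle mice (limma adjusted p = 3.5e-08). Psmd9, a chaperone of the base, read 8.55, 8.46 and 8.51 in mesenchymal cells of phenobarbital mice, 8.41, 8.37 and 8.52 in those of vehicle mice, 9.72, 9.75 and 9.48 in hepatocytes of phenobarbital mice and 9.35, 9.52 and 9.72 in those of vehicle mice. Its difference was −1.14 in phenobarbital mice and −1.10 in vehicle mice, and these 2 chaperones with the 4 immune genes made up the 6 genes of at least 2-fold.

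Of the other chaperones, Psmd5, which also serves the base, differed by −0.75 and −0.72, Psmg3 by −0.63 and −0.59 and Psmg2 by −0.41 and −0.33 in phenobarbital and vehicle mice. The base chaperone Psmd10, also known as gankyrin, had 0.26 in phenobarbital mice (limma adjusted p = 0.0509) and was higher in vehicle mice (0.32, limma adjusted p = 0.0227). Psmg4, the partner of Psmg3, was higher by 0.23 and 0.25, with limma adjusted p = 0.0463 and 0.0334. Neither Psmd10 nor Psmg4 passed with arrays centred on their medians or with cyclic loess. Among all alternative fits, the call of Psmg4 was lost in 8 in each treatment and that of Psmd10 in 5 in vehicle mice. Psmf1, which binds the core and is known as an inhibitor, was lower, with −0.69 and −0.57, on 1 probe set, while its 2 further tested probe sets did not pass in either treatment.

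Among the named genes are 2 that are not subunits. Psmc3ip, which acts in meiotic recombination, did not pass (0.24 and −0.09), and Psme3ip1, which binds the product of Psme3, was higher in both treatments (0.27 and 0.28), though not with arrays centred on their medians.

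**Figure D3:**
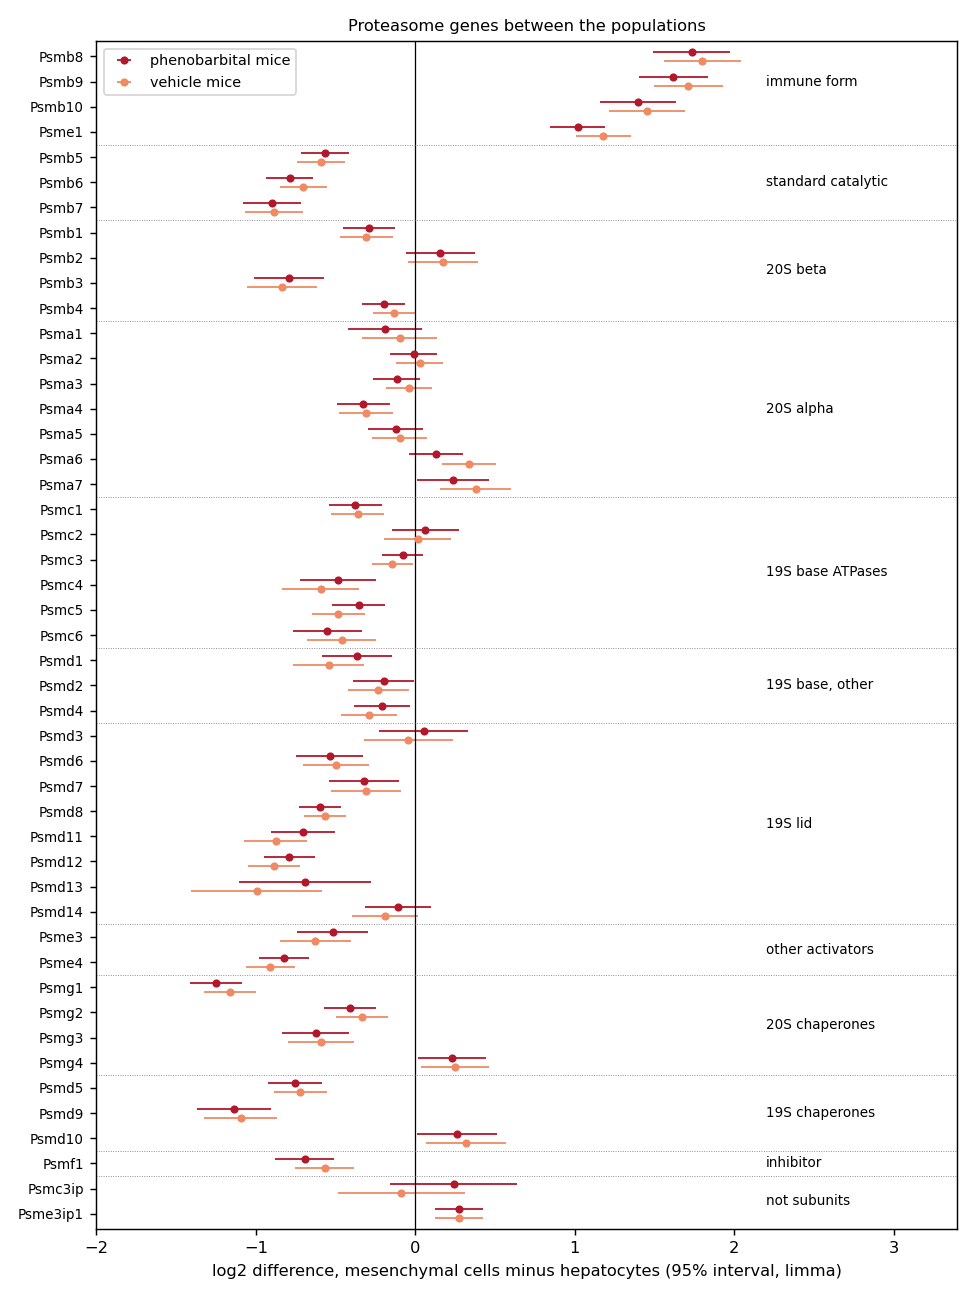
Log2 difference, mesenchymal cells minus hepatocytes (horizontal axis), with its 95% interval from limma, for the 47 genes tested, grouped by place in the proteasome, in phenobarbital mice and in vehicle mice. The 4 immune form genes lie between 1.02 and 1.80, and the other genes lie between −1.25 and 0.38 on the scaling of the deposited values. With arrays centred on their medians no gene outside the immune form passed as higher.

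The pattern was alike in both treatments, whose arrays are separate. The differences had the same sign for 44 of 47 genes, the exceptions being Psma2, Psmd3 and Psmc3ip, which passed in neither. In all, 33 genes passed in both with the same sign, 1 in phenobarbital mice alone (Psmb4), 4 in vehicle mice alone (Psma6, Psmc3, Psmd2 and Psmd10) and 9 in neither. Of all 9031 genes tested, 83.1% passed in phenobarbital mice and 82.7% in vehicle mice. Agreement between the treatments was not counted over all genes, so these counts are not read as particular to the proteasome genes. The largest change of a difference between the treatments was 0.33, that of Psmc3ip, and no change passed the test of the interaction given below.

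Further probe sets of the same genes gave a check on single probes. There were 37, of which 25 were tested, and of these 1 was higher and 16 lower in mesenchymal cells of phenobarbital mice, and 2 and 17 in vehicle mice. In the same fit 11710 of all 14232 probe sets tested passed in either direction in phenobarbital mice, and 11681 in vehicle mice. The sign was that of the probe set used above for 20 of the 25 in phenobarbital mice and for 21 in vehicle mice. Such agreement was not counted over the probe sets of all genes. The exceptions in vehicle mice included Psma7, with −0.08 against 0.38, Psmd7, with 0.38 against −0.31, which passed in the opposite direction, and 1 of the 3 further tested probe sets of Psmd11, with 0.08 against −0.88. Sizes also varied in vehicle mice where signs did not: the further probe sets of Psmc6 gave −1.34 and −1.47 against −0.46, and that of Psmb3 gave −0.24 against −0.84. The further probe sets of Psmf1 gave 0.08 and −0.10 in phenobarbital mice (limma adjusted p = 0.639 and 0.613) and −0.20 and −0.25 in vehicle mice (limma adjusted p = 0.239 and 0.224). The 4 immune genes had 1 probe set each.

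Genes that work beside the proteasome were read for the same contrast, in which 42.2% of all genes were higher and 40.9% lower in phenobarbital mice, and 42% and 40.7% in vehicle mice. The counts of the 4 lists below are to be read against these shares. Of 11 measured genes of MHC class I loading, 7 were higher and 1 lower in mesenchymal cells of phenobarbital mice by limma, and 8 higher and 0 lower in vehicle mice. Tapbp, the bridge between MHC class I and the peptide transporter, was higher by 1.80 and 1.71, the transporter subunits Tap1 by 1.50 and 1.33 and Tap2 by 1.13 and 0.95, and the class I heavy chain H2-D1 by 1.23 and 1.27, in phenobarbital and vehicle mice. Erap1, which trims peptides, was the one lower gene in phenobarbital mice (−0.27, with −0.06 in vehicle mice, where it did not pass). With median centring these counts were 5 higher and 2 lower in phenobarbital mice and 6 and 2 in vehicle mice, and with cyclic loess 5 and 2 in phenobarbital mice and 5 and 1 in vehicle mice.

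Of 16 measured genes of interferon signalling and response, 15 were higher in mesenchymal cells of phenobarbital mice by limma, where Ifit1 did not pass (0.60, limma adjusted p = 0.0767), and all 16 in vehicle mice. The widest were the interferon-induced GTPases Gbp2 (4.31 and 4.76) and Gbp3 (3.26 and 4.56), the transcription factor Irf8 (4.07 and 3.89) and the receptor chain Ifngr1 (3.84 and 3.87). Irf8 is a gene of macrophages and dendritic cells, whose markers were high on the same arrays, and the part of those cells in this list was not tested.

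Partners of the proteasome itself were mixed: of 8 measured, 4 were higher and 1 lower in mesenchymal cells of phenobarbital mice, and 4 and 2 in vehicle mice. The higher ones were Nfe2l2 (1.30 and 1.82) and Nfe2l1 (0.91 and 0.74), transcription factors that raise proteasome genes under stress, Akirin2 (0.78 and 0.75), which escorts the proteasome into the nucleus, and Sem1 (0.50 and 0.62), the smallest lid subunit. The lower ones were the deubiquitinase Uchl5 (−0.30) in phenobarbital mice, and the deubiquitinase Usp14 (−0.38) and the adaptor Ecpas (−0.32) in vehicle mice. Pomp, the maturation factor of the core, differed by 0.16 and 0.11 and did not pass. Median centring gave 4 higher and 3 lower in each treatment.

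Of 6 measured genes that handle ubiquitin chains, 2 were higher and 4 lower in mesenchymal cells of phenobarbital mice, and 1 and 4 in vehicle mice. The shuttle factor Rad23b was lower, with −0.90 and −1.21, as were the Vcp cofactors Nploc4 (−0.52 and −0.58) and Ufd1 (−0.50 and −0.36) and the shuttle factor Ubqln1 (−0.35 and −0.49). Its relative Ubqln2 was higher by 0.90 and 0.64, and the ATPase Vcp passed in phenobarbital mice alone (0.21 and 0.06). Both median centring and cyclic loess gave 1 higher and 4 lower in each treatment.

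**Figure D4:**
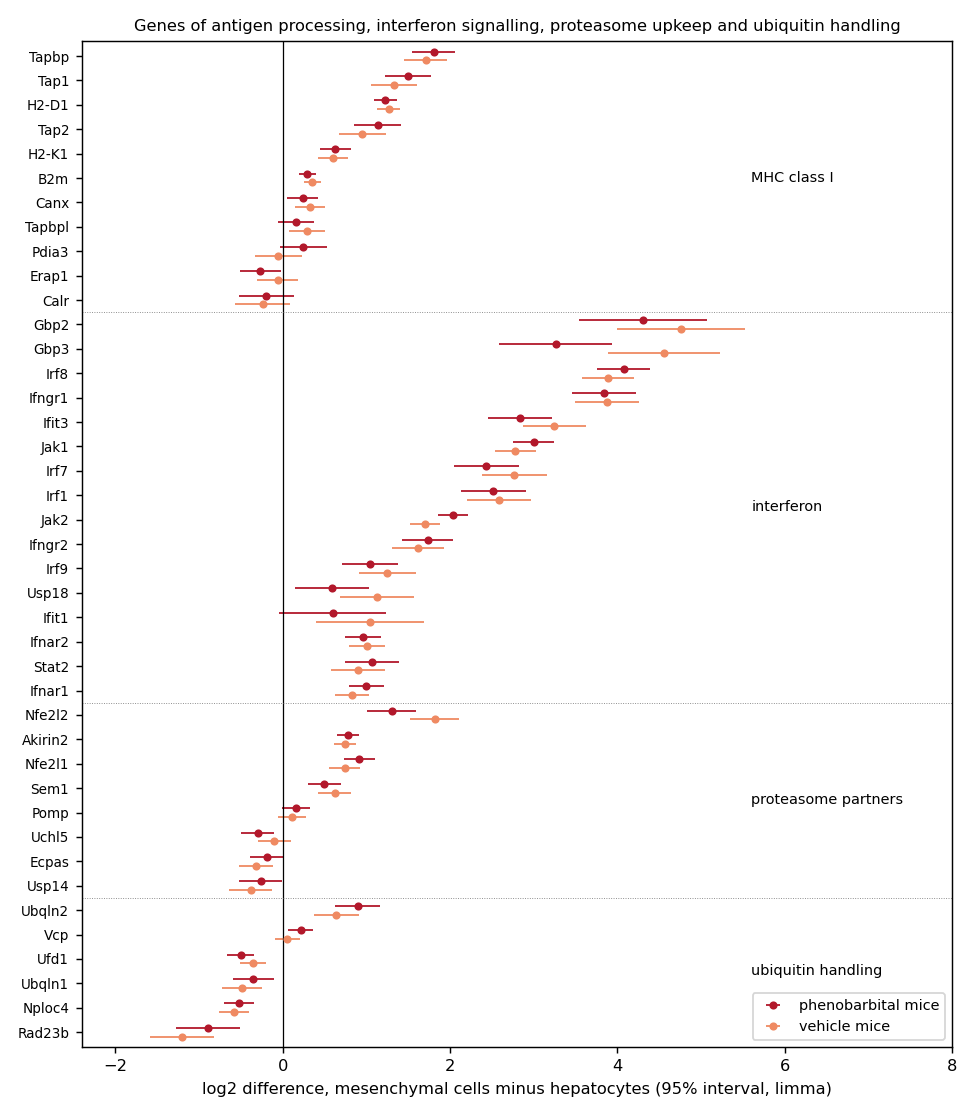
Log2 difference, mesenchymal cells minus hepatocytes (horizontal axis), with its 95% interval from limma, for genes of MHC class I loading, interferon signalling, proteasome upkeep and ubiquitin handling, in phenobarbital mice and in vehicle mice. The interferon genes lie to the right of 0 throughout, led by Gbp2 at 4.31 in phenobarbital mice and 4.76 in vehicle mice, while the ubiquitin genes lie mostly to the left.

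Phenobarbital changed no proteasome gene past the threshold in either population. In hepatocytes 0 of 47 passed in limma, against 0.0493% of the 8117 genes tested, and 1 had an unadjusted p under 0.05. In mesenchymal cells 0 of 47 passed, against 0% of the 8003 genes tested, and 0 had an unadjusted p under 0.05. The smallest limma adjusted p among the 47 was 0.543 in hepatocytes and 0.998 in mesenchymal cells. Cyp2b10 differed by 5.52 in the same hepatocyte arrays (limma adjusted p = 0.00123).

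The one gene with an unadjusted p under 0.05 was Psme1 in hepatocytes. As given above, all 3 of its phenobarbital arrays lay above all 3 of its vehicle arrays, and the difference was 0.24 (SE 0.08, 95% interval 0.04 to 0.43, limma adjusted p = 0.543). The immune cutting subunits had 0.20 for Psmb9, 0.15 for Psmb10 and 0.13 for Psmb8 in hepatocytes, with intervals that included 0 and groups that overlapped. In mesenchymal cells the 4 immune genes had 0.07 for Psme1, 0.10 for Psmb9, 0.09 for Psmb10 and 0.06 for Psmb8.

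The phenobarbital arrays of hepatocytes did not move together. The mean of the 4 immune genes was 10.04, 10.35 and 10.28 in hepatocytes of phenobarbital mice and 10.13, 10.02 and 9.997 in those of vehicle mice, so array 1 of phenobarbital mice lay within the vehicle range and the other arrays above it. On the same arrays the mean of the 16 interferon genes was 8.31, 8.76 and 8.32 with phenobarbital and 8.29, 8.09 and 8.14 with vehicle, highest on array 2, where Psmb9 and Psme1 were highest as well, while Psmb8 and Psmb10 were highest on array 3. Macrophage markers in these phenobarbital hepatocytes were lowest on array 2, at 5.93, and highest on array 3, at 6.54. The part of the interferon genes and of macrophage RNA in these values was not tested. None of the partner genes passed under phenobarbital. In hepatocytes the smallest p among them belonged to the interferon genes Ifit3 (0.77) and Gbp3 (1.30), with limma adjusted p = 0.433 and 0.45, and Nfe2l2 had 0.40 (limma adjusted p = 0.572).

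Beyond the immune form, the hepatocyte differences ran from −0.22 for Psmc4 to 0.12 for Psmd9. Those with the smallest p were Psmc4 (−0.22, SE 0.12), Psmd11 (−0.18, SE 0.10) and Psmd14 (−0.14, SE 0.09) below 0 and Psmg1 (0.10, SE 0.08) above it. By place in the complex, 14 of the 17 genes of the regulatory particle had a difference below 0, with a median of −0.07. Of the 14 standard core genes 11 had one above 0, with a median of 0.03. Among all 8117 genes tested 4138 lay below 0 and 3979 above it, with a median of 0.00. None of the proteasome genes passed, and all were read on the same 6 arrays, so their signs are not independent. The 95% intervals of all 47 genes lay within 1 of 0 and those of 46 within 0.5 of it, so that the widest change any interval allowed was 1.47-fold. The groups did not overlap for 3 of 47 genes (6.38%, against 15.1% of all genes), Psmb6 (0.09), Psme1 and Psmd12 (−0.08).

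In mesenchymal cells the differences ran from −0.17 for Psma6 to 0.36 for Psmd13. The levels of Psmd13, given above, overlapped between the groups, and the interval of its difference, −0.06 to 0.79, was the widest. The others with the smallest p were Psmb9 (0.10, SE 0.08) and Psmd9 (0.08, SE 0.07) above 0 and Psma6 (−0.17, SE 0.09), Psmc4 (−0.11, SE 0.09) and Psmf1 (−0.10, SE 0.09) below it. Intervals lay within 1 of 0 for all 47 genes and within 0.5 for 45, and the widest change any allowed was 1.72-fold. The groups did not overlap for 3 of 47 genes (6.38%, against 7.7% of all genes), Psma6, Psmb9 and Psme3ip1 (−0.06).

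Whether phenobarbital acted differently in the populations was asked through the interaction, the hepatocyte difference minus the mesenchymal difference. By limma 0 of 47 genes passed, against 0% of 9031 genes tested, and 0 had an unadjusted p under 0.05. The smallest p were those of Psma6 (0.21, SE 0.11, limma adjusted p = 0.915), Psme1 (0.16, SE 0.11) and Psmf1 (0.13, SE 0.12) above 0 and Psmd11 (−0.17, SE 0.13), Psmc3ip (−0.33, SE 0.26) and Psmd1 (−0.18, SE 0.14) below it. The widest interval allowed a change of 1.86-fold. The balance of immune over standard subunits moved as little: under phenobarbital the pairs of Psmb9, Psmb10 and Psmb8 shifted by 0.11, 0.11 and 0.17 in hepatocytes (exact permutation p = 0.5, 0.3 and 0.3) and by 0.10, 0.07 and 0.08 in mesenchymal cells (exact permutation p = 0.2, 0.7 and 0.4), with overlapping groups in each case.

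**Figure D5:**
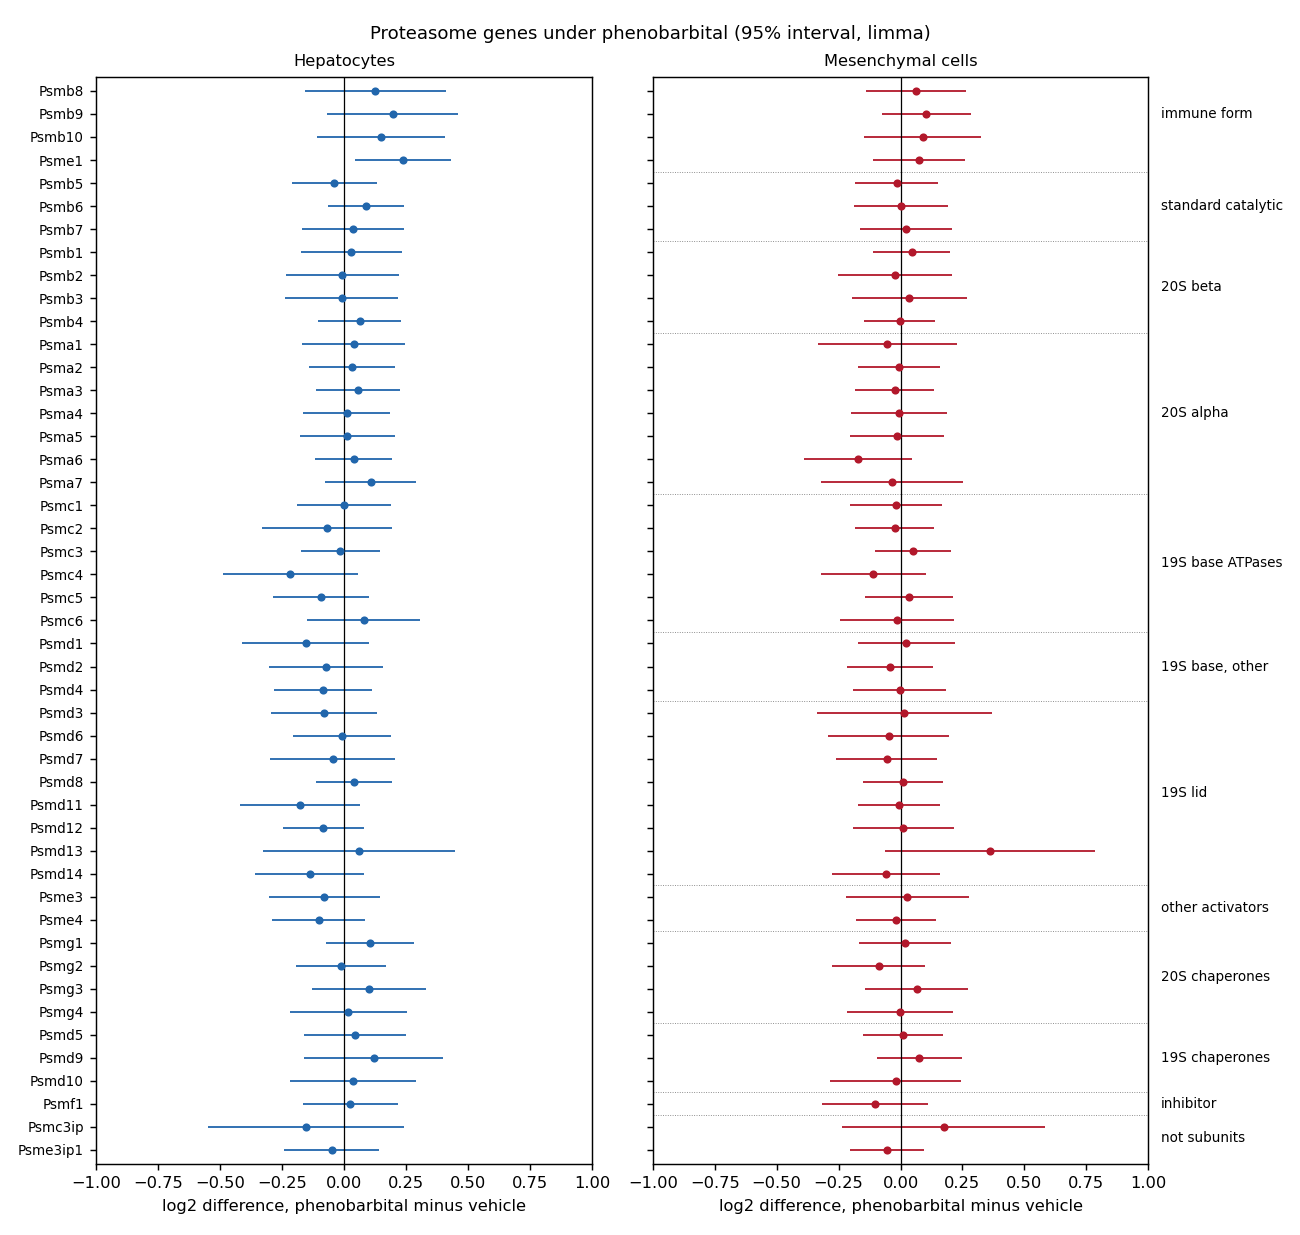
Log2 difference, phenobarbital minus vehicle (horizontal axis), with its 95% interval from limma, for the 47 genes tested, in hepatocytes and in mesenchymal cells. Hepatocyte differences lie between −0.22 and 0.24 and mesenchymal ones between −0.17 and 0.36, and no gene passed after adjustment.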

How the data were processed

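Total RNA of isolated mouse liver cells was labelled with a 3′ IVT kit and each sample was put on an array of its own, per the labels' protocols. The values the authors deposited are log2 expression from RMA, per the submitters' processing notes. Software, version and scan batch: not given in the sources used here. RMA scales probes before it summarises them, and the deposited medians still differed by population, from 7.40 to 7.44 on mesenchymal arrays and from 7.19 to 7.21 on hepatocyte arrays.

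Names came from the platform annotation (20380 probe sets with 1 symbol, 691 with several, 1555 with none), and of several probe sets the brightest on average represented the gene. The labels gave groups and replicate numbers. Tests used limma 3.58.1 in R 4.3.3 (lmFit, eBayes with an intensity trend, Benjamini-Hochberg over all genes tested, threshold 0.05) on genes above the 40th percentile in at least 3 arrays. Phenobarbital was compared with vehicle on the 6 arrays of each population. The populations and the interaction were fitted on all 12. Pairs of subunits used an exact permutation test (SciPy 1.17.1, Python 3.11.15). Motifs were searched in RefSeq start windows. The fits were tested on simulated data.

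The members, gene lists and tests were chosen with earlier results of these data known. Values by array were given for the immune genes and their counterparts; genes were named by the widest difference among those that passed, up to 10 of each sign, or else by the smallest p, up to 3 of each sign, and partner genes up to 4 of each sign. Values by array of Psmd13, Psmg1 and Psmd9 and the group means of Psma8 were added after their values were seen, and every other member was accounted for.

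Same-numbered vehicle arrays of both populations deviated together (r = 0.226, 0.213 and 0.178, each highest with its own number), and the replicate number was tried as a block. In phenobarbital mice r was 0.0718, −0.0616 and 0.0144, and between treatments it ran from −0.304 to 0.144. Alternatives changed the filter, scaling, probe set rule, intensity trend, arrays in the fit and block, and left out arrays.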

Additional observations from a re-analysis of the deposited data

How the results depend on the processing

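Counts of genes that passed are among 43 standard and 4 immune genes (the number of standard genes tested changes with the filter and, by Psma8, with cyclic loess), mesenchymal cells against hepatocytes. The 4 immune genes passed as higher in each alternative and treatment. Standard genes that passed as higher, 3 in phenobarbital mice and 5 in vehicle mice, were 0 and 0 with arrays centred on their medians, and leaving out 1 array gave 1 to 2 and 3 to 5. They were 1 without phenobarbital mesenchymal array 1 or 2 or phenobarbital hepatocyte array 1, and 3 without vehicle mesenchymal array 1 or vehicle hepatocyte array 2. Standard genes that passed as lower, 27 and 28, became 43 and 45 probe sets when every probe set was tested, since more features were counted, and were 25 to 28 and 25 to 30 with 1 array left out. Without replicate 1 of both vehicle groups, an alternative chosen after the data were seen, 4 standard genes were higher and 25 lower in vehicle mice. With the replicate block, 1 standard gene was higher and 27 lower in phenobarbital mice, and 5 were higher and 27 lower in vehicle mice. In phenobarbital mice same-numbered arrays did not deviate together, and Psma7 (limma adjusted p = 0.07) and Psmg4 (limma adjusted p = 0.0588) were lost. Phenobarbital and interaction counts stayed at 0 by limma in each alternative, with and without the replicate block; at most 3 genes, without phenobarbital hepatocyte array 1, had an unadjusted p under 0.05. Left-out arrays moved the pair shifts between 2.19 and 2.52. Signs turned for Psmg4 in phenobarbital mice (−0.00195, median centring) and, with probe sets averaged, for the mesenchymal phenobarbital difference of Psmf1 (0.0446) and its interaction (−0.0625), none of which passed there. Of the population values of single genes, 25 lost their call and 450 kept it in phenobarbital mice, and 33 lost it and 522 kept it in vehicle mice. The reversed value of Psmg4 is counted in neither. These 58 lay among Psma6, Psma7, Psmc3, Psmd2, Psmd4, Psmd7, Psmd10, Psme3ip1 and Psmg4. The 1318 values compared in all include phenobarbital and interaction values, which had no call to lose. Apart from the settings built to count otherwise, the cause of the losses was not tested. Limits: 3 arrays a group, an unknown number of animals, bulk fractions with mixed cells, and array medians that differ by population.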
